A study of Mus musculus with 4 samples.

Results

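Lef1-positive CD4 T cells were picked from leukocytes of the inflamed mouse colon by the transcripts counted in each cell. A cell had to show at least 200 genes and under 20% mitochondrial counts. It also had to hold at least 2 unique molecular identifiers (UMIs, tags that each mark 1 captured transcript) of Cd3e, Cd3d and Cd3g together, at least 1 of Cd4 and at least 1 of Lef1. Cells with any UMI of Foxp3, Cd8a, Cd8b1, Trdc, Ngp, Csf3r, Csf1r, Cd79a, Ms4a1 or C1qa were left out, as were cells in which S100a8 and S100a9 made up 0.5% or more of the UMIs. In all, 328 of 43432 cells met this rule (0.755%). The 17 genes of the rule chose the members, so their levels are given as a description and support nothing here.

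Colitis had been set off with 2% dextran sulfate sodium (DSS), a polymer toxic to the gut lining, drunk with the water for 7 days, and tissue was taken on day 8. CD45+ leukocytes of the colonic lamina propria were collected with magnetic beads, and 3 mice of the same group were mixed into each of 4 samples. The study used AhR-null and wild-type mice (AhR, the aryl hydrocarbon receptor), and the labels give an age of 10 weeks, where the text of the study gives a younger one, and tie none of the 4 samples to a genotype. All 4 samples shared the DSS treatment, and no untreated sample was analysed here. Values are therefore shown sample by sample, without means over samples and without a comparison of genotypes. Where 4 values follow each other, they are those of samples 1, 2, 3 and 4 in that order.

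CD4 T cells that have not met their antigen circulate between blood and lymph nodes. They enter nodes with the help of the chemokine receptor Ccr7, and leave along a lipid gradient read by S1pr1, a gene that the transcription factor Klf2 switches on. Lef1 and Tcf7 encode HMG-box proteins that pair with beta-catenin at the end of the Wnt pathway, and both are abundant in naive and stem-like T cells and decline as effector cells form. The lamina propria is an effector site, in which most CD4 T cells carry an activated or memory programme.

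The members numbered 95, 88, 67 and 78 cells. They held 760040, 490987, 731350 and 752659 UMIs, with medians of 6423, 4637, 8446 and 8121 UMIs and 2286, 1868, 2799 and 2781.5 genes per cell. Sample 2 was the shallowest. No cell barcode was shared between members of different samples, and pairs of whole libraries shared 23 to 49 barcodes. Among the cells with the highest doublet scores, 1, 1, 2 and 1 were members, and they were kept. Intervals below are exact at 95% and cover counting error only.

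Members made up 0.865%, 0.666%, 0.60% and 0.968% of all cells. Among Foxp3-negative CD4 T cells, which pass the same rule whether or not Lef1 was counted, the Lef1-positive share was 70.9% (62.4 to 78.4), 54.7% (46.6 to 62.5), 41.9% (34.1 to 49.9) and 46.4% (38.7 to 54.3), with a median of 50.5%. Sample 1 lay above samples 3 and 4 beyond these intervals, and the intervals of all other pairs overlapped. Detection of Lef1 grows with depth. Cells were therefore also thinned to 2000 UMIs before the rule was applied, leaving out the 646, 1256, 870 and 839 cells below that depth. Then 85 members remained, 19 of 51, 28 of 78, 19 of 72 and 19 of 76 Foxp3-negative CD4 T cells. The share was 37.3%, 35.9%, 26.4% and 25%, with samples 1 and 2 about level. No intervals are given for these few cells, so a separation of sample 1 is not shown at equal depth. Foxp3-positive cells, which hold regulatory T cells, were 22.1%, 18.7%, 41.0% and 34.9% of CD4 T cells, and Lef1 was counted in 26.3%, 29.7%, 36.0% and 40% of them.

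**Figure D1:**
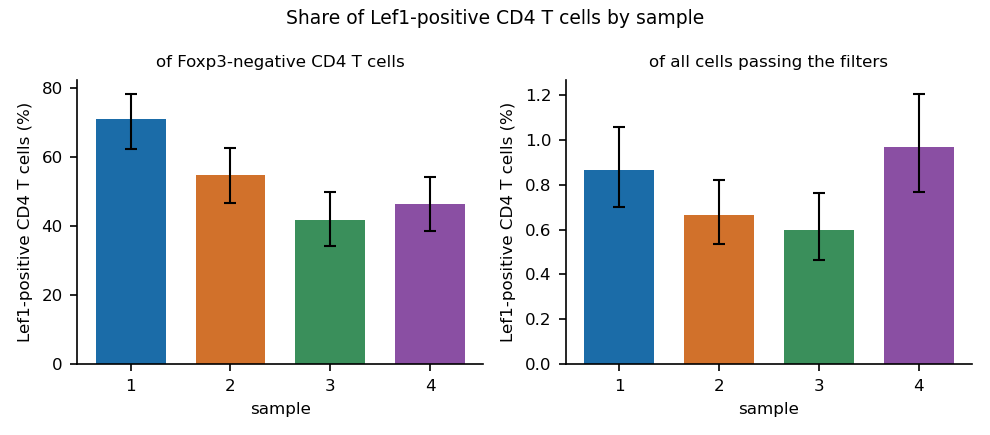
Share (%) of Lef1-positive CD4 T cells in each sample, of Foxp3-negative CD4 T cells on the left and of all cells on the right, with exact 95% binomial intervals. On the left the bars run from 41.9% in sample 3 to 70.9% in sample 1, and on the right from 0.60% to 0.968%.

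The number of Lef1 UMIs per member differed between samples. The median was 7, 5, 3 and 2, and the highest 57, 33, 61 and 67. Cells with a single Lef1 UMI, just inside the rule, were 16.8%, 17.0%, 29.9% and 42.3% of members. Those with 4 or more were 68.4%, 58.0%, 46.3% and 34.6%. The background of Lef1 was read as a share of all cells of a set, not of cells already chosen for Lef1. On that footing, members with 1 Lef1 UMI were 16, 15, 20 and 33 of the 134, 161, 160 and 168 Foxp3-negative CD4 T cells. Lef1 was counted in 9.49%, 11.9%, 7.51% and 7.98% of B cells and in 3.63%, 4.95%, 1.14% and 1.43% of neutrophils. The median depth of the B cells was 6746, 5332, 8749 and 7200 UMIs, and that of the neutrophils 7083.5, 3658, 4151 and 5873.5.

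Tcf7, the second marker, was counted in 76.8%, 81.8%, 67.2% and 59.0% of members, against 2.81% to 7.71% of B cells. Thinned to 2000 UMIs, the shares of members were 55.8%, 57.5%, 43.3% and 36.4%, against 0.804% to 2.30% of B cells. Lef1 and Cd4 were part of the rule, and Tcf7 was not. In Foxp3-negative CD4 T cells without a Lef1 UMI, Tcf7 was counted in 76.9%, 60.3%, 48.4% and 52.2%. Thinned to 2000 UMIs, the shares there were 48.7%, 38.9%, 20.9% and 32.6%. Tcf7 thus set members apart from B cells, but was common in these nearest cells as well. At full depth it was level with them in sample 1 and higher in members of samples 2 to 4, with intervals apart only in sample 2. Whether the label naive-like holds is not clear. Cd44, an adhesion receptor that is raised on activated and memory T cells, was counted in 49.5%, 52.3%, 77.6% and 82.1% of members. These Cd44 shares are at full depth, which differed between samples, and have no background share beside them. The cells are called Lef1-positive here, after the gene of the rule, and whether they were naive was not tested.

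Recirculation and activation genes were next read in the same cell, with each cell thinned to 2000 UMIs. Cells below that depth were left out, so that 95, 87, 67 and 77 members and 39, 72, 91 and 89 undetected cells were read. These genes were chosen with their levels known, each being higher or lower in members of all 4 samples, so the contrast with other cells is a description of them only. At least 1 of Ccr7, S1pr1 and Klf2 was counted in 77.9%, 74.7%, 62.7% and 50.6% of members. At least 1 of Cd44, Ahnak, Tbx21 and Rora was counted in 49.5%, 54.0%, 83.6% and 89.6%. Only the first group was counted in 45.3%, 41.4%, 16.4% and 9.09% of members. In the Lef1-undetected cells of the same gate the share was 2.56%, 1.39%, 2.20% and 0%. Lef1-positive CD8 T cells were nearer to the members, at 49.3%, 21.4%, 18.4% and 7.41%. In sample 4 none of the 89 undetected cells read had that profile, which by a limit of 3 cells allows a share of up to 3.37%. Members with both groups were 32.6%, 33.3%, 46.3% and 41.6%. Samples 1 and 2 thus held more members with recirculation genes alone than samples 3 and 4, and sample 4 held the fewest.

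**Figure D2:**
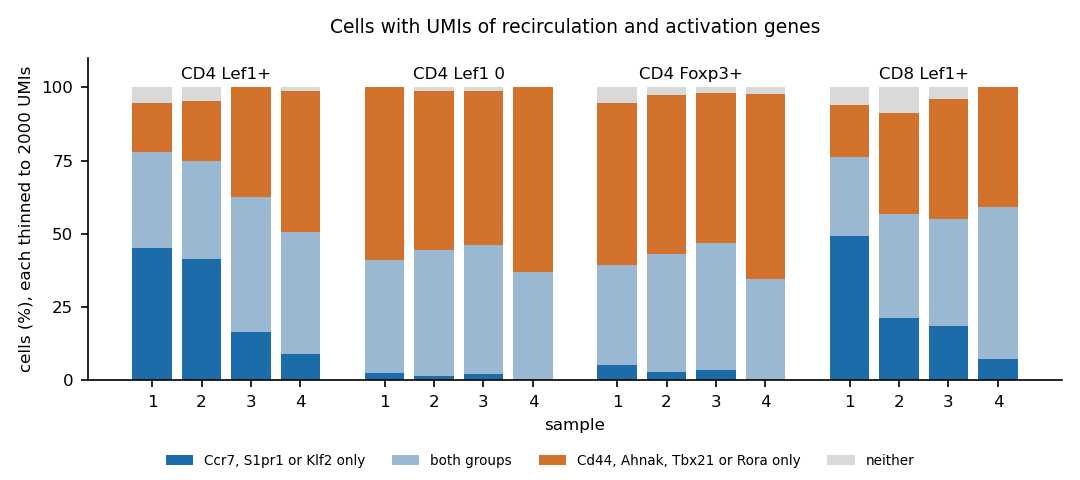
Share (%) of cells, each thinned to 2000 UMIs, with UMIs of the recirculation genes only, of the activation genes only, of both or of neither, in 4 T cell sets (CD4 Lef1 0 means Lef1 undetected) and 4 samples. The recirculation-only part is 45.3%, 41.4%, 16.4% and 9.09% in Lef1-positive CD4 cells and at most 2.56% in Lef1-undetected ones.

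The closest comparison for the members was with the Foxp3-negative CD4 T cells in which Lef1 was not counted (39, 73, 93 and 90 cells, with median depths of 6534, 4718, 8021 and 6516 UMIs). UMIs were summed over the cells of a set in a sample and scaled to CPM, counts per 1000000 UMIs. Of 5912 genes at 20 CPM or more on average, 1 was higher in members by over 2-fold in all 4 samples (0.0169% of genes) and 2 were lower (0.0338%), on the scale log2(CPM + 10). At any size of difference, 537 genes (9.08%) were higher in all 4 samples and 589 (9.96%) lower. Because the rule itself split these sets, no test was made. Without sample 1 the counts past 2-fold were 2 higher and 4 lower, without sample 3 they were 5 and 4, and without sample 4 they were 4 and 8.

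Igfbp4, which encodes a binding protein of insulin-like growth factors and is a usual marker of naive T cells, was the 1 gene past 2-fold on the higher side. It lies at chr11:99041244-99054392 on the plus strand of build GRCm38. Its level was 243, 128, 17.8 and 31.9 CPM in members and 13.0, 5.0, 0 and 2.97 CPM in the undetected cells, where 0 in sample 3 allows up to 3.23 CPM by a limit of 3 counts. The log2 ratio was 3.46, 3.21 and 1.69 in samples 1, 2 and 4. The levels of members in samples 3 and 4 were low and rested on few cells: Igfbp4 was counted in 47, 27, 6 and 5 members. These shares, 49.5% and 30.7% in samples 1 and 2, lay far above the 2.63% and 5.59% of B cells, whereas the 8.96% and 6.41% of samples 3 and 4 were close to the 5.39% and 4.09% of B cells there.

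Il17a and Il17f, the paired cytokine genes of T helper 17 cells, were the 2 genes past 2-fold on the lower side. Il17a (chr1:20730905-20734496, plus strand) stood at 10.5, 12.2, 15 and 102 CPM in members and at 74.9, 515, 53.8 and 321 CPM in undetected cells. Il17f (chr1:20777146-20790617, minus strand) stood at 7.89, 2.04, 4.10 and 6.64 CPM in members and at 108, 92.4, 25.8 and 96.6 CPM in undetected cells. A handful of cells carried these sums. Il17a came from 3, 8, 6 and 8 undetected cells, and 1 cell gave 16 of 23, 130 of 206, 25 of 50 and 180 of 216 UMIs. Members with an Il17a UMI numbered 1, 1, 4 and 7. When cells with any S100a8 or S100a9 UMI were left out, which kept 82 members, the median log2 ratio of Il17f moved from -2.70 to -0.29 and that of Il17a from -1.80 to -3.33.

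The stretch before the start of each of these 3 genes is shown because they are the genes past 2-fold. Sequences are from RefSeq (GRCm38.p6) on the strand of the gene, and capitals mark CTTTGAT or CTTTGAA, the core that TCF/LEF proteins bind, searched on both strands. The 2 motifs share their first 6 letters and cannot match at the same place. Igfbp4 and Il17a are shown for the 250 bases before the start (chr11:99040994-99041243 and chr1:20730655-20730904, upstream of the annotated gene), and neither window holds a match. Il17f holds CTTTGAT from 141 bases before the start and is shown for 30 bases around it (chr1:20784393-20784422, in an intron of a longer Il17f transcript).
Igfbp4: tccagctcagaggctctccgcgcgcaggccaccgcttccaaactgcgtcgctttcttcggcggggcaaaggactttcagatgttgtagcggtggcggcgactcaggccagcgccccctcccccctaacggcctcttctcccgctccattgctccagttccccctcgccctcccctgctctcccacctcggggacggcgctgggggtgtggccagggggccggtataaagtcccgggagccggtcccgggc
Il17a: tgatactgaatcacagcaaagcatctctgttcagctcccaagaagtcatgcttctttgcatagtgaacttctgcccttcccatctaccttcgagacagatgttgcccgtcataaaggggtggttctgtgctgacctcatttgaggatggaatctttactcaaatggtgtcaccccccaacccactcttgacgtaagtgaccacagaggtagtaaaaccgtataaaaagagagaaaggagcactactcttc
Il17f: ttagggtccccCTTTGATtccccttcagga

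A match was found in 7.48% of all 32851 promoter windows of this length and in 5.80% of the 4759 tested genes that had a window. Of the genes higher in members in all 4 samples, 31 of 425 had one (7.29%), and of those lower 28 of 453 (6.18%). In the naive list these were Foxp1 and Txk, 2 of 19 genes, and in the activation list Tnfrsf9, 1 of 22. Of the T helper effector genes, Il17f, Il2, Il5 and Gzmk had one, 4 of 21. The windows of Lef1 (4 starts), Tcf7 (2 starts) and Klf2 held none. These matches describe letters in a window and do not show binding.

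Genes of naive and quiescent T cells were mostly higher in members than in undetected cells. Of 21 tested genes of this list, 15 were higher in all 4 samples and 1 was lower. Over all tested genes these shares were 9.08% and 9.96%. The median log2 ratio of the list was 0.62, against -0.0037 over all tested genes. Igfbp4 alone passed 2-fold in every sample. Ccr7 stood at 525, 448, 275 and 229 CPM in members and 68.4, 87.4, 196 and 99.6 CPM in undetected cells. The gap was wide in samples 1 and 2, with log2 ratios of 2.77 and 2.23, and narrow in sample 3, at 0.47. In sample 4, 1 member gave 58 of the 172 Ccr7 UMIs.

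Klf2, the regulator of recirculation genes, stood at 759, 735, 354 and 343 CPM in members against 238, 377, 182 and 244 CPM. S1pr1, the exit receptor, stood at 158, 246, 98.4 and 128 CPM against 117, 62.5, 54.9 and 46.1 CPM. Satb1, a chromatin organiser of T cells, stood at 3958, 4544, 2480 and 2369 CPM against 1433, 2016, 1392 and 1705 CPM. All 3 were higher in members of every sample. Bach2, a repressor that keeps T cells from effector fates, was at 3009, 3214, 1369 and 1362 CPM against 1362, 1544, 880 and 1252 CPM, and the ratio in sample 4 was slight. Tcf7 was at 462, 468, 358 and 312 CPM against 303, 297, 177 and 216 CPM, a log2 ratio of 0.51 to 0.98.

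Some genes of the list did not follow. Il7r, the receptor for the survival cytokine IL-7, was at 208, 222, 223 and 319 CPM in members against 430, 150, 230 and 281 CPM. Its order differed between samples. Foxo1, which drives Klf2 and Il7r in resting T cells, was slightly lower in members of all 4 samples, with log2 ratios of -0.02 to -0.32. Dapl1 and Als2cl were too low to be tested.

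**Figure D3:**
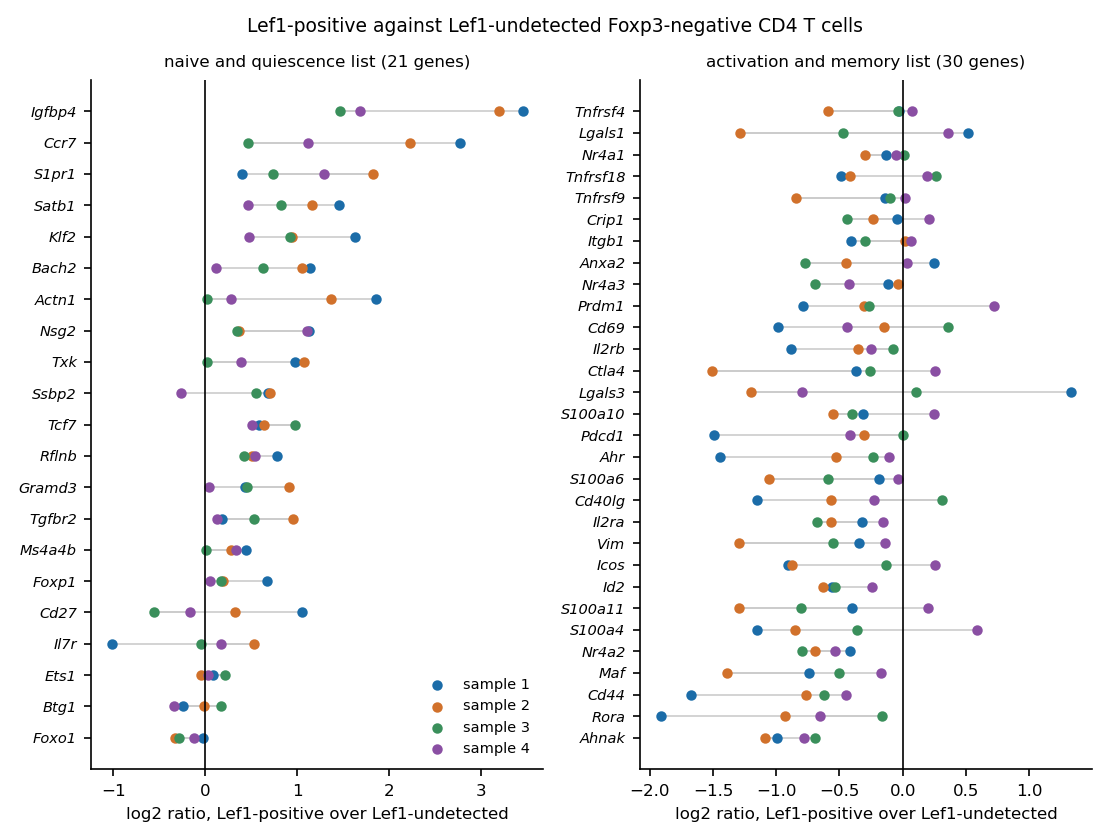
Log2 ratio of CPM + 10 between Lef1-positive and Lef1-undetected Foxp3-negative CD4 T cells for the 21 tested naive genes and the 30 tested activation genes, 1 point per sample, with genes ordered by their median. Igfbp4 and Ccr7 lie farthest to the right, and all 4 points of Ahnak, Rora and Cd44 lie to the left of 0.

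Genes of activation and memory leaned the other way. Of 30 tested genes, 0 were higher in members of all 4 samples and 12 were lower. Over all tested genes these shares were 9.08% and 9.96%. The median log2 ratio of the list was -0.36, and none of its genes passed 2-fold throughout. Cd44 stood at 276, 426, 483 and 639 CPM in members and 902, 729, 747 and 874 CPM in undetected cells. Rora, a nuclear receptor of T helper 17 and tissue T cells, stood at 671, 959, 1374 and 1473 CPM against 2557, 1834, 1544 and 2322 CPM. Ahnak, a large scaffold protein, was lower in all samples at 170, 196, 416 and 534 CPM against 349, 427, 678 and 923 CPM. Maf, Id2, Il2ra, Il2rb, S100a6, Vim, Nr4a2, Nr4a3 and Ahr were the other 9.

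Other activation genes were as abundant in members of some samples as in undetected cells. Ctla4, an inhibitory receptor, was at 588, 521, 980 and 1515 CPM against 762, 1501, 1172 and 1268 CPM, so that sample 4 had the higher level in members. Icos, a co-stimulatory receptor, was at 604, 697, 715 and 1010 CPM against 1140, 1287, 786 and 843 CPM. S100a4 was at 287, 175, 457 and 480 CPM against 648, 325, 590 and 315 CPM. For all 3 the undetected cells were higher in samples 1 to 3 and the members in sample 4.

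Summed over each list, the naive genes reached 17854, 19131, 11413 and 12186 CPM in members and 11187, 12047, 8567 and 11228 CPM in undetected cells. The activation genes reached 7513, 7082, 10723 and 13229 CPM in members and 12679, 12651, 13811 and 14455 CPM in undetected cells. The 2 sets were thus close together in sample 4 and far apart in samples 1 and 2.

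Of 14 tested T helper effector genes, 0 were higher in members of all 4 samples, 5 were lower and 9 had no common direction. Over all tested genes, 9.08% were higher and 9.96% lower. The list summed to 2500, 1073, 1832 and 2083 CPM in members and 1815, 3985, 1845 and 2673 CPM in undetected cells, and in sample 1 the sum in members was mostly Ifng. The 5 lower genes were Il17a, Il17f, Tbx21, Il23r and Nkg7. Tbx21, the T helper 1 regulator T-bet, stood at 23.7, 30.6, 65.6 and 112 CPM in members and 74.9, 79.9, 100 and 201 CPM in undetected cells. When cells with any S100a8 or S100a9 UMI were left out, which kept 82 members, its median log2 ratio turned to 0.79. Il23r, the receptor that sustains T helper 17 cells, stood at 22.4, 42.8, 105 and 173 CPM against 368, 255, 224 and 177 CPM, which was almost level in sample 4. Of the regulatory T cell list, 5 genes were tested and Il2ra alone was lower in all 4 samples. Of the 9 tested genes of follicular helper cells, Slamf6 was higher and Tox2 lower, which is about the share of all tested genes on each side.

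Homing genes were mixed. Of 15 tested, 3 were higher in members of all 4 samples (Ccr7, S1pr1 and Gpr183, a receptor for oxysterols). On the lower side there were also 3 (Cxcr3, Cxcr6 and the integrin gene Itgal). Over all tested genes, 9.08% were higher and 9.96% lower. Itga4, an integrin subunit used for entry into the gut, was at 225, 200, 696 and 833 CPM in members and 264, 330, 748 and 816 CPM in undetected cells. Cytokine receptors gave 2 of 20 higher (Il6ra and Tgfbr2), close to the 9.08% of all tested genes, and 6 lower (Il2ra, Il2rb, Il10ra, Ifngr1, Ifnar2 and Tnfrsf1b). Il6ra, the receptor subunit for IL-6, was at 53.9, 44.8, 60.2 and 58.5 CPM against 35.8, 25, 25.8 and 34.2 CPM.

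Of the TCF/LEF and Wnt genes, 14 were tested, of which 4 were higher in members of all 4 samples and 1 was lower. The shares over all tested genes were 9.08% higher and 9.96% lower. Higher in members of all 4 samples were Tcf7, Apc, the co-receptor Lrp6 and Znrf3, a ubiquitin ligase that removes Wnt receptors. Rnf43, its close relative, was lower. Znrf3 was at 246, 222, 97.1 and 93.0 CPM against 58.6, 84.9, 56.0 and 77.3 CPM. Rnf43 was at 7.89, 10.2, 13.7 and 22.6 CPM against 35.8, 12.5, 30.1 and 38.7 CPM. Ctnnb1, which encodes beta-catenin, showed no common direction, at 101, 71.3, 88.9 and 89.0 CPM against 91.2, 72.4, 108 and 106 CPM. Axin2, a common readout of Wnt signalling, was too low to be tested (4.10 to 12 CPM in members).

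Of 17 tested genes of the T cell receptor and its signalling, 0 were higher and 4 lower in members (Lck, Cd5, Cd28 and Themis). The median log2 ratio of the list was -0.0049. For this and the next lists, the shares over all tested genes were 9.08% higher and 9.96% lower. Immediate early genes, which T cell stimulation and tissue handling both raise, gave 0 of 12 higher and 6 lower (Fosb, Junb, Atf3, Dusp1, Btg2 and Nfkbia). Of 10 interferon-stimulated and 11 cell cycle genes tested, none moved one way in all 4 samples. Among 8 heat shock genes Hspe1 alone was higher, which is near the 9.08% of all tested genes. Of the 80 tested ribosomal protein genes, 41 were higher in members of all 4 samples and 0 were lower, with a median log2 ratio of 0.26. Ribosomal protein UMIs were 17.6%, 16%, 12.6% and 10.5% of the total in members and 13.5%, 12.3%, 12.6% and 9.06% in undetected cells.

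Levels were also read against the number of Lef1 UMIs in a cell. Cells with 4 or more Lef1 UMIs (65, 51, 31 and 27 cells) had Ccr7 at 691, 642, 435 and 438 CPM, against 68.4, 87.4, 196 and 99.6 CPM in cells with none. Klf2 in those cells was at 1004, 1121, 463 and 507 CPM, and Satb1 at 5029, 5361, 3439 and 2810 CPM. All were above the undetected cells. Tcf7 was at 635, 566, 593 and 244 CPM against 303, 297, 177 and 216 CPM, and in sample 4 it was lower than in the cells with 1 or with 2 to 3 Lef1 UMIs, at 325 and 407 CPM. Il7r was at 143, 227, 142 and 395 CPM against 430, 150, 230 and 281 CPM, with no common direction. Cd44 was at 131, 257, 516 and 534 CPM, below the undetected cells of every sample. Rora was at 295, 517, 1559 and 899 CPM, which in sample 3 was level with the 1544 CPM of undetected cells.

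On the 2 sides of the rule, cells with 1 Lef1 UMI had Ccr7 at 95.3, 186, 140 and 67.3 CPM, nearer in all 4 samples to the cells without Lef1 than to those with 4 or more. Their Tcf7 was at 35.7, 285, 173 and 325 CPM, far below the undetected cells in sample 1. Their Satb1 was at 1370, 3628, 1500 and 2338 CPM and their Cd44 at 578, 656, 469 and 741 CPM. The groups with 1 and with 2 to 3 Lef1 UMIs held 14 to 33 cells, and 5 of these 8 groups held fewer than 20. Lef1 is a gene of the rule, so these values are a description.

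**Figure D4:**
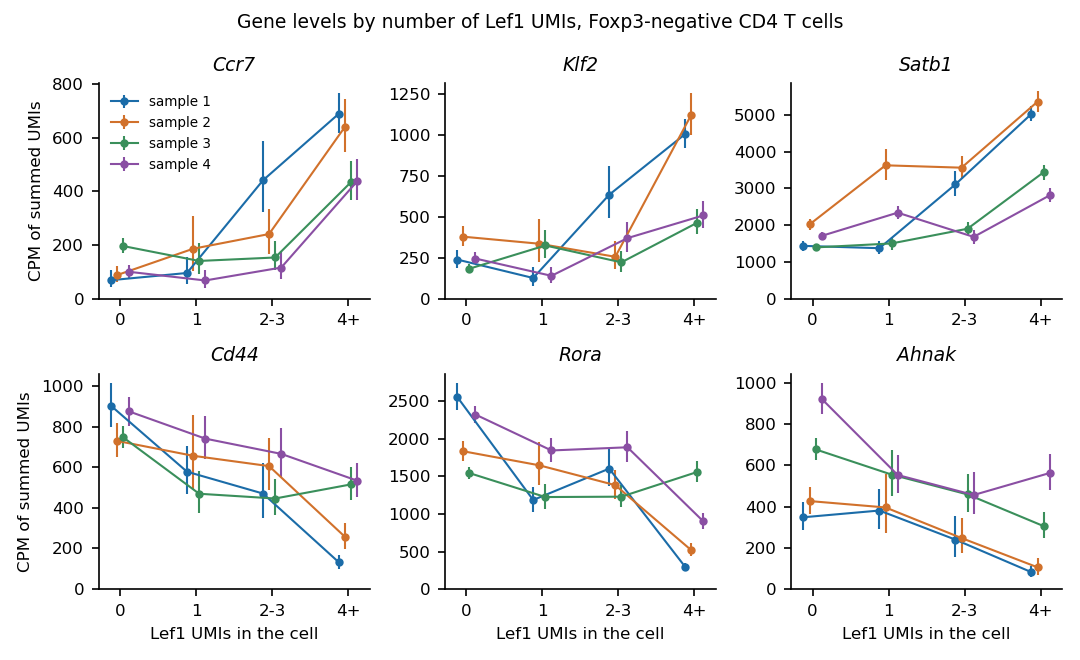
CPM of summed UMIs (linear axis) against the number of Lef1 UMIs in the cell for Ccr7, Klf2, Satb1, Cd44, Rora and Ahnak in Foxp3-negative CD4 T cells, 1 line per sample, with exact 95% Poisson intervals. Ccr7 lies at 435 to 691 CPM in cells with 4 or more Lef1 UMIs and at 68.4 to 196 CPM in cells with none.

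Foxp3-positive CD4 T cells (38, 37, 111 and 90 cells) differed from members in more genes. Of 6098 genes tested, 37 were higher in members by over 2-fold in all 4 samples (0.607%) and 44 lower (0.722%). Without sample 1 the higher count was 56, and without sample 4 the counts were 56 and 74. Tcf7 led the higher side, at 38.8, 33.7, 28.3 and 36.2 CPM in Foxp3-positive cells. It was followed by Mctp2, at 229, 277, 182 and 256 CPM in members against 25.8, 56.2, 14.2 and 23.3 CPM. Patj, Hs3st3b1, Gramd3, Pde3b, Scml4, Arap2, Bach2 and Tgfbr2 completed the first 10. Bach2 was at 532, 649, 226 and 402 CPM in Foxp3-positive cells.

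On the lower side, the regulatory T cell list gave 6 of 6 tested genes lower in members of all 4 samples, at a background of 15.4% of genes higher and 23.4% lower at any size. They were Il2ra, Ikzf2, Ikzf4, Ctla4, Tnfrsf18 and Il10, with a median log2 ratio of -1.44. Il2ra, the high-affinity IL-2 receptor subunit, was at 60.5, 69.2, 145 and 186 CPM in members and 390, 520, 955 and 759 CPM in Foxp3-positive cells. Il10, a suppressive cytokine, was at 34.2, 28.5, 12.3 and 70.4 CPM against 295, 551, 410 and 364 CPM. Klrg1, a receptor of differentiated effector T cells, was at 7.89, 2.04, 8.20 and 7.97 CPM against 82.7, 59.0, 78.2 and 93.3 CPM. Nckap5, Frmd5, Myo3b, Ky, Sh3rf1, Ankrd55 and the chemokine receptor gene Ccr2 were the rest of the first 10. Interferon-stimulated genes were lower in members for 9 of 10 and cell cycle genes for 9 of 14. Ccr7 did not separate the sets, since in sample 3 it was at 336 CPM in Foxp3-positive cells and 275 CPM in members.

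Lef1-positive CD8 T cells (67, 159, 50 and 55 cells) were also compared with members. Of 5960 genes tested, 22 were higher in members by over 2-fold in all 4 samples (0.369%) and 28 lower (0.470%), and at any size 12.2% of genes were higher and 11.5% lower in all 4 samples. Without sample 1 the counts were 42 and 44, and without sample 2 the higher count was 39. Of 21 tested naive genes, 4 were higher in members of all 4 samples (Tcf7, Il7r, Satb1 and Ets1) and 1 was lower (Ssbp2), with a median log2 ratio of 0.16. Klf2 was at 795, 490, 402 and 465 CPM in the CD8 cells and Ccr7 at 527, 207, 295 and 170 CPM.

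Of 14 tested genes of the T helper effector list, 4 were higher in members than in these CD8 cells in all 4 samples (Gata3, Il1rl1, Il23r and Il10) and 7 were lower (Tbx21, Il12rb2, Ccl5, Nkg7, Gzma, Prf1 and Eomes). Among the genes past 2-fold, Cd40lg, the helper ligand that signals to B cells and dendritic cells, was at 61.8, 99.8, 98.4 and 113 CPM against 5.45, 8.13, 6.66 and 0 CPM. Tnfrsf4, the co-stimulatory receptor OX40, was at 137, 169, 375 and 299 CPM against 7.26, 8.13, 8.87 and 28.6 CPM. Maf was at 254, 283, 546 and 922 CPM against 18.2, 34.3, 59.9 and 30.4 CPM. Tnfsf8, Nav2, Nebl, Trib2, Ipmk, Pecam1 and Il23r made up the first 10. Lower in members were Ccl5, at 241, 301, 491 and 466 CPM against 1137, 5388, 3878 and 3962 CPM, and granzyme A (Gzma), at 23.7, 91.7, 271 and 199 CPM against 1308, 3369, 1247 and 1161 CPM. Bend4, Cd7, Ly6c2, Klrd1, Gm44174, Ctsw, Klre1 and Klrc1 were the others of the first 10.

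**Figure D5:**
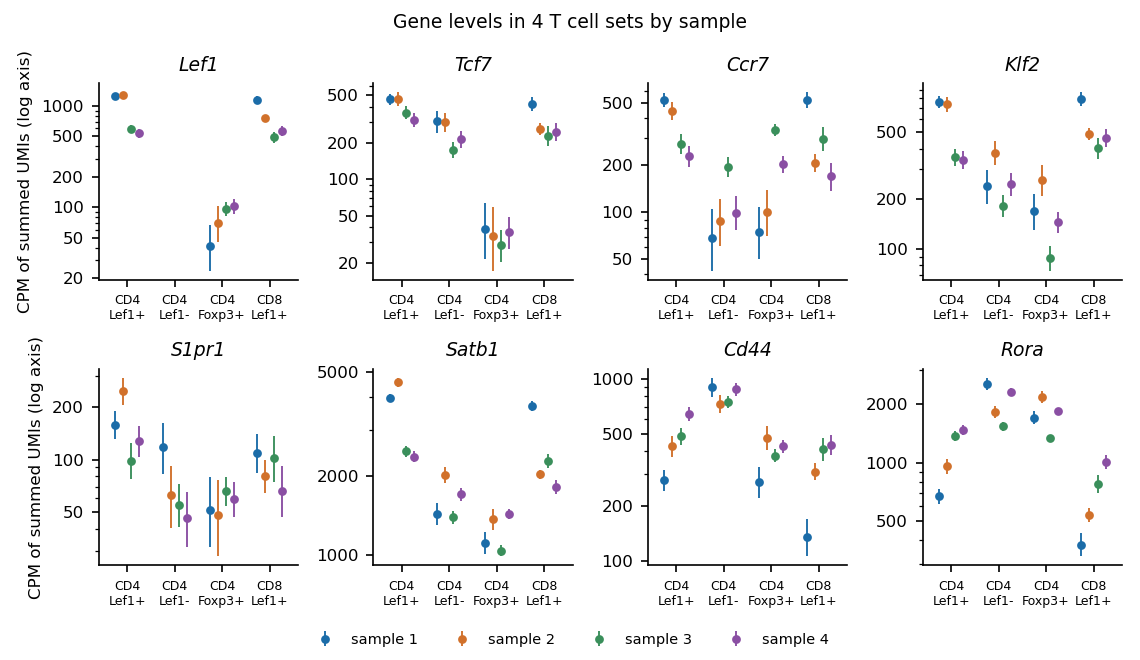
CPM of summed UMIs (log axis) of 8 genes in 4 T cell sets, with 1 point per sample and exact 95% Poisson intervals; Lef1- means that Lef1 was not counted, and a level of 0 is not drawn. Klf2 and Satb1 are high in Lef1-positive CD4 and CD8 cells, Tcf7 is lowest in Foxp3-positive cells, and Cd44 and Rora are higher in Lef1-undetected than in Lef1-positive CD4 cells.

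Within the members, levels differed widely between samples. Over the 4219 genes that reached 50 CPM in 1 sample or more, the median range between samples was 0.58 on the scale log2(CPM + 10). The 5 genes of largest range were Ifng, Chil3, Igkc, Igha and Areg, at 4.91 to 3.56. Ifng, the T helper 1 cytokine interferon gamma, was at 1455, 38.7, 68.4 and 41.2 CPM, but in sample 1 a single cell gave 1098 of 1106 UMIs. Areg, a growth factor of tissue repair, was at 14.5, 18.3, 49.2 and 278 CPM, and 1 cell of sample 4 gave 133 of 209 UMIs. Chil3, a product of myeloid cells, was at 9.21, 2.04, 119 and 182 CPM in members and 329, 102, 1539 and 1467 CPM in all cells. A single member gave 41 of its 87 UMIs in sample 3, and 1 gave 92 of 137 in sample 4.

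Antibody transcripts followed the library. Igkc, a light chain gene, was at 75, 750, 71.1 and 43.8 CPM in members, 108, 742, 73.2 and 52.0 CPM in undetected cells and 4612, 17560, 4124 and 2816 CPM in all cells, and it was counted in 85 of the 88 members of sample 2. Igha was at 48.7, 415, 69.7 and 25.2 CPM in members and 1891, 9560, 2835 and 1828 CPM in all cells. Sample 2 was the highest in each. The part of free RNA in these levels was not tested.

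Proliferation also varied. The cell cycle list summed to 1270, 1086, 2639 and 2790 CPM in members, 2042, 1869, 3220 and 3260 CPM in Foxp3-positive cells and 1500, 1556, 2731 and 2257 CPM in Lef1-positive CD8 T cells, with samples 3 and 4 the higher ones in these 3 sets. In Lef1-undetected cells it summed to 1756, 1007, 2181 and 1576 CPM, and there sample 4 lay below sample 1. The most abundant gene of the list in members was Hmgb2, a chromatin protein, at 675, 499, 1418 and 1489 CPM. Mki67 was counted in 4.21%, 4.55%, 23.9% and 23.1% of members, while the share in B cells was 4.67%, 6.77%, 7.51% and 7.16%. It was thus at the B cell level in samples 1 and 2 and above it in samples 3 and 4. Thinned to 2000 UMIs, the shares were 0%, 2.30%, 11.9% and 7.79% of members, where 0 of 95 cells allows up to 3.16% by a limit of 3 cells.

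Ahr, the receptor that the study deleted, was at 47.4, 120, 97.1 and 128 CPM in members and 147, 177, 116 and 138 CPM in undetected cells, lower in members of all 4 samples. It was counted in 13.7%, 20.5%, 41.8% and 42.3% of members, or 5.26%, 10.3%, 17.9% and 14.3% after thinning. Neutrophils gave 13.3%, 9.25%, 9.81% and 6.84%, so that sample 1 was at their level. UMIs of Ahr were present in all 4 samples and were not used to assign a genotype. Of the 12 tested genes of the AhR pathway and of polyamine synthesis, Ahr and Odc1 were lower in members and 0 were higher, at shares over all tested genes of 9.96% lower and 9.08% higher. Odc1, the first enzyme of polyamine synthesis, was at 472, 473, 182 and 143 CPM in members and 922, 884, 184 and 233 CPM in undetected cells. Cyp1b1 was listed at 0 in members, and Cyp1a1, another common AhR target, had 1.32 CPM in sample 1 and 0 elsewhere.

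Markers of other cells were summed in members and undetected cells, without the genes that the rule sets to 0 or caps (2 of 10 in the B cell list, 4 of 10 in the neutrophil list and 2 of 10 in the monocyte and macrophage list). The other 8 B cell genes summed to 750, 513, 528 and 449 CPM in members and 580, 1089, 1144 and 797 CPM in undetected cells, with Cd74 the most abundant at 189 to 459 CPM. The 6 neutrophil genes summed to 163, 91.7, 201 and 320 CPM, led by Il1r2, and the 8 monocyte and macrophage genes to 93.4, 173, 109 and 181 CPM, led by Apoe. The 9 dendritic cell genes summed to 46.1, 10.2, 62.9 and 136 CPM, with Siglech at 0, and the 9 genes of innate lymphoid and NK cells to 86.8, 134, 234 and 381 CPM, led by Areg. The part of these transcripts in the results above was not tested. A UMI of 6 further B cell and myeloid genes was held by 42, 34, 29 and 28 members. Leaving out every cell with such a UMI kept 53, 54, 38 and 50 members. This alternative, chosen after seeing the data, gave the same counts of 1 and 2 genes past 2-fold.

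The 8 epithelial genes summed to 13.2, 59.1, 15 and 41.2 CPM with Krt20 at 0, and the 6 fibroblast genes to at most 19.1 CPM. Of the mast cell and basophil genes 5 of 7 were at 0 in members, where the list reached at most 34.6 CPM, while 1 undetected cell of sample 1 brought that set to 6903 CPM. Of the 5 endothelial genes 4 were at 0, leaving Pecam1, which T cells can also carry, at 451, 440, 479 and 403 CPM. The gamma-delta list summed to at most 16.3 CPM, with Trdv4 at 0. The NKT and innate-like list summed to 393, 587, 570 and 575 CPM, led by Il18r1, and of 5 tested genes 0 had a common direction. Rag1 and Rag2, the recombinase genes of developing T cells, were at 0 in all members, and the 1 tested gene of the immature T cell list had no common direction. The plasma cell list summed to 204, 1373, 234 and 154 CPM, led by Igkc, with Tnfrsf17 at 0. In the B, plasma, myeloid, dendritic, innate lymphoid, mast and endothelial cell lists, 22 genes were high enough to test. None was higher or lower in members of all 4 samples, against 9.08% and 9.96% of all tested genes.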

How the data were processed

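Single-cell libraries of 4 samples of CD45+ colonic leukocytes were analysed. Deposited values are whole UMI counts, not normalized, for 32285 genes in each cell. The matrix headers name Cell Ranger 7.0.1, and the submitters' processing notes name Cell Ranger 5.0.0, STAR, Seurat and mm10. Whether intronic reads were counted and which cell thresholds were used is not given in the sources used here. Long genes gain most from intronic reads, so ratios were taken between cells and not between genes. The most abundant gene of a list is named as a description only. The files held 11425, 13730, 11581 and 8493 barcodes with 113806334, 135516016, 101579112 and 72509408 UMIs in samples 1 to 4, and 10986, 13223, 11164 and 8059 cells passed the filters.

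Cells were chosen by the rule on UMIs given above. UMIs were summed per sample and cell set and scaled to CPM, and sets were compared within each sample as log2 ratios after adding 10 CPM. Genes with a mean of at least 20 CPM over the 2 sets and 4 samples were read, without the 17 genes of the rule, and a gene counted as past 2-fold only in all 4 samples. B cells had at least 2 UMIs of Cd79a and neutrophils at least 1 of Csf3r with S100a8 and S100a9 at 5% or more of UMIs, both without CD3 UMIs. CD8 T cells had a UMI of Cd8a or Cd8b1 and none of Cd4. Cells are not replicates and the samples have no group, so no p-value was computed. Intervals are exact (Clopper-Pearson for shares, Poisson for counts) and cover counting error only. Every share after thinning to 2000 UMIs leaves out cells below that depth. Doublets were scored with Scrublet in scanpy 1.11.5, and the highest scores, 0.8% of cells per 1000 cells, were removed in an alternative.

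Genes named are Lef1, Tcf7, Cd4 and Ahr, up to 10 genes on each side past 2-fold, up to 4 genes of each list and the 5 genes of largest range between samples. Other genes of a list, those of the gate and of its B cell and neutrophil references were named after their values were seen, and so were the genes read together in a cell. The members and the 27 gene lists were chosen with earlier results of these data known. One gene of 2 lists is not reported here and was left out of them. Coordinates are from GENCODE M21 on GRCm38, which holds 32235 of the gene identifiers, and sequences from RefSeq. Other tools were Python 3.11.15, numpy 2.4.6, pandas 2.3.3, scipy 1.17.1 and matplotlib 3.10.9.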

Additional observations from a re-analysis of the deposited data

How the results depend on the processing

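With no UMI of S100a8 or S100a9 allowed, 82 cells remained and the counts past 2-fold against undetected cells were 9 higher and 5 lower. There the median log2 ratio turned for Tbx21, from -0.97 to 0.79, and for Foxp1, from 0.18 to -0.015, while Il17f moved from -2.70 to -0.29 and Kif1b from 1.03 to 0.069. At least 2 Lef1 UMIs gave a median share of 37.4% of Foxp3-negative CD4 T cells. By sample it was 59.0%, 45.3%, 29.4% and 26.8%, so that sample 4 and not sample 3 was the lowest. Thinning before the rule gave 85 cells and 31.1%. At least 500 genes, under 10% mitochondrial UMIs, removal of the highest doublet scores and 1 or 4 CD3 UMIs kept the share between 50% and 51.1%.

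The counts against undetected cells, 1 higher and 2 lower, were 3 and 5 with a pseudocount of 1 CPM, 0 and 0 with 50 CPM, 9 and 13 at 1.5-fold, 5 and 4 with both sets thinned, and 2 and 4 against the deeper undetected cells. At any size they were 537 and 589, a setting chosen after seeing the data. With a mean of at least 50 CPM or with per-cell means, 1 gene was lower. With 50 CPM added, the median log2 ratio of Igfbp4 was 1.16, where it had been 2.45. Leaving out each sample in turn gave 1 to 5 higher and 3 to 8 lower, since fewer samples then had to pass. For Foxp3-positive cells the counts were 57 higher with 1 CPM added, 19 higher and 20 lower with 50 CPM, and 49 to 56 higher and 51 to 74 lower without a sample. For CD8 cells they were 7 and 11 with 50 CPM, and 24 to 42 and 33 to 44 without a sample. These last settings were chosen after seeing the data. The cause of the other shifts was not tested.

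Of 399 median log2 ratios of single genes to undetected cells under the alternatives, 383 moved by less than the spread between samples, 14 moved by more and the 2 above turned. Il7r, which had no common direction, also went from 0.065 to -0.046 without sample 2 and without sample 4. Depth limits genes near the level of a few UMIs, such as Igfbp4 and the cytokines. Samples were not paired with each other by number, because the labels give them no groups. Cell sets of the same sample were compared as ratios within it, without a test, since the rule itself split them.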

Other observations

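Several values of the members fell on the same side in samples 1 and 2 and on the other in samples 3 and 4, and these genes were chosen after their values were seen. Themis, a regulator of T cell receptor signalling, was at 380, 430, 830 and 781 CPM, Itga4 at 225, 200, 696 and 833 CPM and Odc1 at 472, 473, 182 and 143 CPM. For Itga4 and Odc1 the undetected cells, at the levels given above, fell on the same sides, so the split was not particular to members. Ifngr2, the signalling chain of the interferon gamma receptor, was at 107, 141, 20.5 and 15.9 CPM in members and at 6.52, 5.0, 22.6 and 14.9 CPM in undetected cells. In Lef1-positive CD8 T cells it was at 104, 65.0, 13.3 and 35.8 CPM. The labels put these samples in no group, and the difference was not tested.

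The member of sample 1 with 1098 Ifng UMIs held 21751 UMIs in all, with 1 of Lef1, 5 of Cd4, 2 of Tbx21, 1 of Cd44 and 0 of Tcf7 and Ccr7. Members with an Ifng UMI numbered 5, 10, 19 and 14, and the highest single cell of samples 2 to 4 held 3, 10 and 5.

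Genes past 1.5-fold against undetected cells in all 4 samples were 9 higher and 13 lower. The higher ones beside Igfbp4 were St8sia6, Ugcg, Patj, Kif1b, Rfc1, Myb, Pik3ip1 and Tmlhe. Myb, a transcription factor of stem-like T cells, was at 101, 159, 131 and 73.1 CPM in members and 35.8, 82.4, 59.2 and 37.2 CPM in undetected cells. Ugcg, the enzyme that makes glucosylceramide, was at 447, 424, 376 and 357 CPM against 189, 202, 181 and 214 CPM. The lower ones beside Il17a and Il17f were Myo3b, Gnb4, Golim4, Fgl2, Phlda1, Camk2b, Ndrg1, Nr3c1, Cd226, Ahnak and Grk5.

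Segments of the T cell receptor were counted in few members. Of 35 Trbv genes, 8, 6, 9 and 5 were counted, in 15, 7, 14 and 6 members. Trbv12-2 was the most frequent in samples 1 to 3, in 4, 3 and 5 members, and Trbv20 in sample 4, in 2. Of 128 Trav genes, 10, 6, 7 and 9 were counted, in 14, 6, 7 and 8 members.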
